A study of Mus musculus with 5 samples.

Results

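The oligoadenylate synthetase family was followed through the cells of the atherosclerotic mouse aortic arch. Its members were taken by name: Oasl1, Oasl2, Oas1a, Oas2 and Oas3, which are 5 of the 16498 genes of the table, and each had transcripts in every library. The study compared Apoe-/- mice, which lack apolipoprotein E and develop plaques, with Oasl1-/-Apoe-/- mice to learn what loss of Oasl1 does to the diseased vessel. Cells were pooled from 6 mice on a normal chow diet for 28 weeks, sorted as live cells by DAPI and profiled by droplet 3′ RNA sequencing. Whether the 6 mice stand for each library or for each group is not stated. There were 2 libraries of the strain named Apoe-/- (genotype Oasl1+/+Apoe-/-) and 3 libraries labelled Oasl1-/-Apoe-/-, all lacking Apoe. Littermate controls were used by the study, and the targeting had removed the promoter region and an early exon of Oasl1 in all cells of the animal.

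Oligoadenylate synthetases are interferon-induced enzymes that sense double-stranded RNA. The active enzymes, among them those encoded by Oas1a, Oas2 and Oas3, join ATP into 2′-5′ linked oligoadenylates as part of the defence against viral RNA. The OASL proteins carry ubiquitin-like domains at their C terminus: mouse OASL2 is an active synthetase, whereas OASL1 is inactive and is known for holding back translation of Irf7, the transcription factor that amplifies type I interferon. In the artery wall, interferon-stimulated genes are best known from inflammatory macrophages of the plaque.

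All members lie on chromosome 5 (GRCm38). Oasl2 (ENSMUSG00000029561, 114896936 to 114912234) and Oasl1 (ENSMUSG00000041827, 114923240 to 114937915) are neighbours on the plus strand, 11005 bases apart. The other members form a second cluster on the minus strand, 5.79 Mb farther along, in which Oas2 (ENSMUSG00000032690, 120730333 to 120749853), Oas3 (ENSMUSG00000032661, 120753098 to 120777661) and Oas1a (ENSMUSG00000052776, 120896256 to 120907521) span 177 kb. The proteins of the coding transcript used for each gene have 511 (Oasl1), 508 (Oasl2), 367 (Oas1a), 742 (Oas2) and 1138 (Oas3) residues. OASL1 and OASL2 shared 47.5% of 499 aligned residues, and OAS2 and OAS3 shared 49.1%.

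A 3′ library reads the end of a transcript, so members can be told apart only where their ends differ. Among windows of 50 bases in the last 500 bases of each transcript, none was shared between any pair of members. Of the windows of Oas1a, however, 56.1% also occurred in Oas1g, a paralog outside the list whose protein was 95.9% identical to that of Oas1a. Reads of these genes may have been divided between them, and the values of Oas1a are uncertain in that respect. The genes overlapping a member, Gm13822 at Oasl1 and Gm43068 at Oas2, lie on the opposite strand and do not reach the last exon.

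Interferon-stimulated genes are commonly switched on through a response element built on repeats of GAAA. The letters GAAANNGAAA, or TTTCNNTTTC on the opposite strand, were searched for in RefSeq promoters of GRCm38.p6, from 250 bases before to 50 bases after the start. Of 32851 promoters, 3.44% held the letters, and 2 of the 4 members with an entry did (Oas3 and Oas1a, not Oasl1 or Oasl2). Outside the list, the paralogs Oas1g and Oas1c held the letters as well, and the levels of both are given further on. The stretches of Oas3, Oas1a and Oas1g are shown. They lie at chr5:120777715-120777744 (Oas3), chr5:120907523-120907552 (Oas1a) and chr5:120887609-120887638 (Oas1g), all on the minus strand, with the matching letters in capitals:
Oas3: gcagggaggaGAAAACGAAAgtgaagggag
Oas1a: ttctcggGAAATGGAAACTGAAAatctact
Oas1g: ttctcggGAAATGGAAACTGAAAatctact
In Oas1a and Oas1g 2 overlapping copies made up the match, and the 30 bases shown were identical. A match is a description of letters, not of a site in use.

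The table held 18260 cells, between 3212 and 4338 per library, with 16959976 to 19813039 unique molecular identifiers (UMIs, single transcript molecules counted after removal of copies) in a library. Levels are given as CP10K, the mean over cells of UMIs per 10000 UMIs of the cell. Cells were assigned to types by fixed marker genes, and 631 cells stayed unassigned. Types with at least 20 cells in every library were compared, namely smooth muscle cells (10895 cells), macrophages (3261), endothelial cells (1357), NK/T cells (704), fibroblasts (549), monocytes (304) and dendritic cells (130). Between 3 cells (NK/T cells) and 97 cells (smooth muscle cells) of a type lay near the limit of its assignment. Of all barcodes, 165 occurred in more than 1 library. Macrophages made up 11.4% and 10.7% of the Apoe-/- libraries and 23.9%, 22.7% and 24.5% of those labelled Oasl1-/-Apoe-/-.

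Transcripts of the targeted gene do not check these labels. Oasl1 counted 299, 257 and 315 UMIs where the labels say Oasl1-/-Apoe-/- and only 27 and 16 where they say Apoe-/-, so it was higher where the gene is said to be deleted. The last exon, at 114936918 to 114937915, lies outside the part that was removed. Every direction below therefore rests on the labels alone.

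The other members moved the same way in the whole aorta. Oasl2 had 123 and 85 UMIs against 659, 583 and 698, and Oas1a had 80 and 82 against 476, 515 and 518. Oas3 had 15 and 29 UMIs against 187, 192 and 205, and Oas2, with the fewest UMIs, had 9 and 9 against 103, 90 and 101. Each Apoe-/- library lay below the others for these genes, and the share of all genes without overlap was not counted. All 4 members with enough signal for the test were past the threshold (limma adjusted p under 0.05), as were 20.5% of all genes tested in that direction. The log2 differences were 1.88 for Oasl1 (SE 0.0894), 1.82 for Oasl2 (SE 0.114), 1.90 for Oas1a (SE 0.0873) and 1.44 for Oas3 (SE 0.0875), with limma adjusted p from 1.28e-07 to 9.15e-07. Oas2 stayed below the limit on low values, with ranges of 0.00547 to 0.00704 CP10K and 0.0536 to 0.0589 CP10K.

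In the whole aorta, more cells of a type and more RNA per cell cannot be told apart. When every library was given the same cell type shares, the differences of these 4 genes were 1.52, 1.44, 1.36 and 1.11, each still past the threshold by limma. Only Oasl2 reached the limit of 0.05 CP10K by the mean of the Apoe-/- libraries, at 0.0863 and 0.0490 CP10K. The other 3 were tested because of their level in the libraries labelled Oasl1-/-Apoe-/- and had to differ to be tested, so their number is no support of its own. P-values measure the spread between pooled libraries, and if the libraries of a group came from 1 pool of mice, that spread is technical only.

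**Figure D1:**
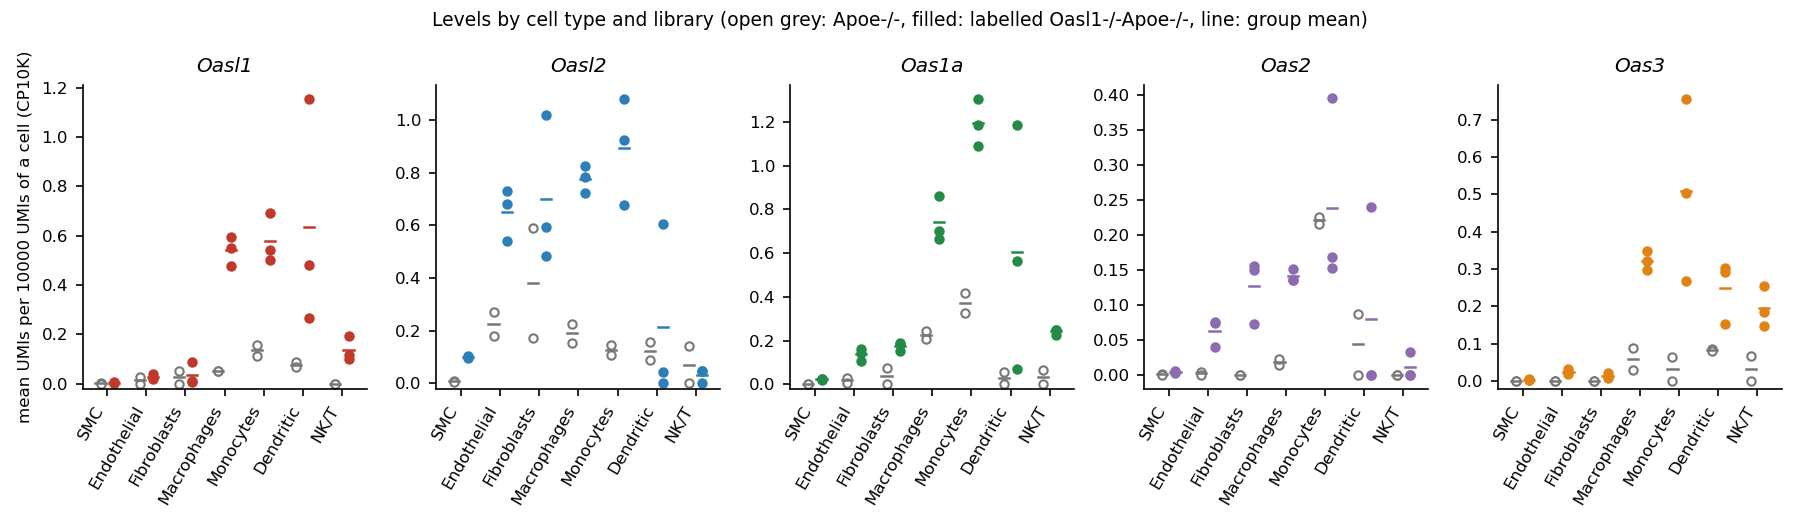
Mean level of each member (CP10K, UMIs per 10000 of the cell, each panel with its own linear axis) by cell type, with 1 point per library and a line at the mean of each group. In the libraries labelled Oasl1-/-Apoe-/-, Oasl1 and Oas3 had their highest group means in macrophages, monocytes and dendritic cells and were at or under 0.0893 CP10K in each library in stromal types, whereas Oasl2 reached 0.542 to 1.08 CP10K in macrophages, monocytes and endothelial cells.

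Macrophages held most of the family's transcripts in the libraries labelled Oasl1-/-Apoe-/-. There, 714 Oasl1, 1075 Oasl2, 1067 Oas1a, 192 Oas2 and 453 Oas3 UMIs came from 2334 macrophages, against 25, 79, 125, 7 and 29 UMIs from 927 Apoe-/- macrophages. All 5 members were tested in this type, and all 5 were higher in that group, where 10.3% of all genes were higher and 6.02% lower. Oas2 alone was tested only through its level in those libraries. Leaving out any 1 library changed none of the 5 calls. When macrophages were clustered, the groups were spread differently over the clusters, whose values are given further on.

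Among the 5 members in macrophages, Oasl1 had the log2 difference farthest from 0, although differences between members were not tested. Its level was 0.0513 and 0.0529 CP10K in the Apoe-/- libraries against 0.552, 0.476 and 0.595 CP10K in those labelled Oasl1-/-Apoe-/-. The groups lay far apart, and the Apoe-/- libraries were nearly equal. The means were 0.0521 ± 0.00115 CP10K (SD, n = 2) and 0.541 ± 0.0605 CP10K (SD, n = 3), with a ratio of 10.4 and a log2 difference of 2.53 (SE 0.147, limma adjusted p 1.97e-08).

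Its neighbour on the chromosome, Oasl2, rose in the same macrophages. The libraries had 0.226 and 0.153 CP10K against 0.825, 0.784 and 0.722 CP10K, with no overlap. The log2 difference was 1.80 (SE 0.140, limma adjusted p 4.75e-07), a ratio of 4.10.

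The RNA-sensing synthetases rose as well. Oas1a was at 0.245 and 0.205 CP10K against 0.664, 0.862 and 0.699 CP10K, a log2 difference of 1.52 (SE 0.134, limma adjusted p 1.67e-06). Oas3, the synthetase with the longest protein of the family, was at 0.0296 and 0.0881 CP10K against 0.299, 0.347 and 0.322 CP10K. Replicate 2 of the Apoe-/- libraries thus had more Oas3 than replicate 1, yet less than any library labelled Oasl1-/-Apoe-/-. Its log2 difference was 1.83 (SE 0.206, limma adjusted p 1.90e-05). Oas2 was at 0.0138 and 0.0225 CP10K against 0.152, 0.135 and 0.136 CP10K, a log2 difference of 1.49 (SE 0.174, limma adjusted p 2.76e-05), with all libraries of a group close together.

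The paralog Oas1g, which shares 3′ ends with Oas1a, was at 0.0214 and 0.0443 CP10K against 0.344, 0.304 and 0.290 CP10K in macrophages, higher by 2.14 on the log2 scale (limma adjusted p 7.07e-07). Oas1c, whose promoter held the same letters, was at 0.0242 and 0.00550 CP10K against 0.0281, 0.0192 and 0.0289 CP10K, and the groups overlapped. In the whole aorta Oas1c was at 0.0102 and 0.0140 CP10K against 0.0186, 0.0198 and 0.0181 CP10K.

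Monocyte markers moved with these values. The summed level of the 8 monocyte markers in cells assigned to macrophages was 1.65 and 1.31 CP10K in the Apoe-/- libraries against 2.31, 2.72 and 3.21 CP10K, and all 8 were found in each library. Their part in the result was not tested. The 5 cycling markers were at 0.590 and 0.716 CP10K against 1.14, 0.968 and 0.999 CP10K in macrophages, and their part was not tested either.

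**Figure D2:**
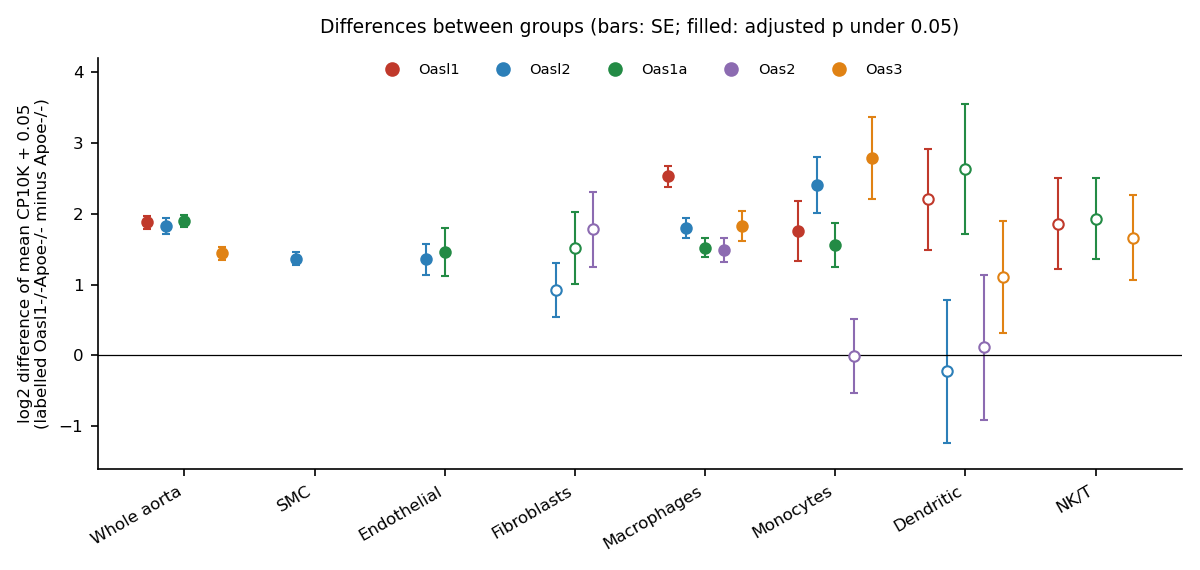
Log2 difference (libraries labelled Oasl1-/-Apoe-/- minus Apoe-/-) of each member in the whole aorta and in each cell type, with bars of 1 SE on either side from limma and filled points where the adjusted p was under 0.05. Filled points cover the 4 members tested in the whole aorta, all 5 in macrophages, 4 in monocytes, 1 in smooth muscle cells and 2 in endothelial cells.

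Detection per cell gave the same order of groups. An Oasl1 UMI was found in 1.94% and 2.16% of Apoe-/- macrophages against 19.2%, 19.3% and 19.7% of those labelled Oasl1-/-Apoe-/-. Over the cells of a group, this was 2.05% (Wilson 95% interval 1.32 to 3.18) against 19.4% (17.9 to 21.1). Smooth muscle cells of the latter group, a type at the floor for this gene, had 0.280% (0.167 to 0.469), with median depths of 5210 UMIs there and 5501.5 in macrophages. Oasl2 was found in 7.31% and 5.84% against 29.9%, 30.4% and 28.1% of macrophages, and Oas1a in 11.6% and 12.6% against 31.0%, 33.7% and 31.5%.

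The remaining members followed. Oas3 was found in 1.72% and 3.46% of macrophages against 13.02%, 16.4% and 14.4%, and Oas2 in 0.645% and 0.649% against 7.49%, 6.99% and 7.34%. Each of these 5 shares differed without overlap, and the share of all genes without overlap was not counted. The exact two-sided permutation p was 0.1, the smallest that 2 against 3 libraries allow. A share thus cannot reach 0.05 here (adjusted p 0.138 over 40 shares). Thinned to 1000 UMIs per cell, the share with an Oasl1 UMI in macrophages was 0.477% and 0.488% against 4.58%, 4.64% and 4.35%. Intervals cover counting error only.

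Monocytes, blood cells from which plaque macrophages can form, gave a similar picture on far fewer cells (43 to 81 per library). Oasl1 was at 0.158 and 0.114 CP10K against 0.543, 0.503 and 0.693 CP10K (log2 difference 1.76, SE 0.425, limma adjusted p 0.0355). Oasl2 was at 0.107 and 0.145 against 0.925, 0.679 and 1.08 CP10K (log2 difference 2.41, SE 0.394, limma adjusted p 0.00183). Neither gene overlapped between the groups, and the share of all genes without overlap was not counted. Oas1a (log2 difference 1.56, limma adjusted p 0.00962) and Oas3 (2.79, limma adjusted p 0.0118) were higher too, the latter tested through the libraries labelled Oasl1-/-Apoe-/- alone and listed at 0 in Apoe-/- replicate 1.

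Oas2 stood apart in monocytes, with 0.227 and 0.216 CP10K against 0.168, 0.396 and 0.153 CP10K. The groups overlapped, and the log2 difference was −0.00 (SE 0.519, limma adjusted p 0.9995). Set against macrophages, the change of Oas2 was larger in macrophages by 1.49 on the log2 scale (SE 0.414), which did not pass (limma adjusted p 0.396), and none of the 5 members differed in its change between these types. In all, 4 of 5 members were higher in monocytes, against 1.36% of all genes. None of these calls was kept by voom on summed UMIs or at 1000 UMIs per cell, and leaving out 1 library left 0 to 2 of them.

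Endothelial cells line the vessel and are the cells in which the study placed the role of Oasl1. Oasl2 was readily measured here, at 0.272 and 0.180 CP10K against 0.729, 0.681 and 0.542 CP10K. The groups did not overlap, and the log2 difference was 1.36 (SE 0.219, limma adjusted p 1.16e-04). Oas1a was at 0.0297 and 0.00721 CP10K against 0.142, 0.108 and 0.162 CP10K, a log2 difference of 1.46 (SE 0.340, limma adjusted p 0.00962), tested through the libraries labelled Oasl1-/-Apoe-/-. Without Apoe-/- replicate 2 its limma adjusted p was 0.205, and without replicate 3 labelled Oasl1-/-Apoe-/- it was 0.0703. These were the 2 members tested in endothelial cells, where 2.13% of all genes were higher, and at 1000 UMIs per cell neither passed.

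Few Oasl1 UMIs were found in endothelial cells. The evidence of the study in these cells included protein staining, PCR in stimulated cultured cells, knockdown and endothelial deletion, which these UMIs do not measure. The study also cited earlier single-cell RNA data that placed Oasl1 transcripts in aortic endothelial cells and not in other vascular types. It further used its own single-cell data to describe gene sets and subclusters of endothelial cells. Endothelial cells had median depths of 2806 UMIs (Apoe-/-) and 3551 (labelled Oasl1-/-Apoe-/-), against 5228 and 5501.5 in macrophages. The Oasl1 UMIs numbered 4, 0, 4, 3 and 4 in Apoe-/- replicates 1 and 2 and in replicates 1 to 3 labelled Oasl1-/-Apoe-/-, with levels of 0.0287 CP10K and a listed 0 against 0.0411, 0.0212 and 0.0173 CP10K. The groups overlapped, and the gene was below the limit for testing. An Oasl1 UMI was found in 0.424% of endothelial cells (0.144 to 1.24) in the Apoe-/- group and in 1.39% (0.731 to 2.61) in the group labelled Oasl1-/-Apoe-/-. Oas2 had 1 UMI against 17 and Oas3 a listed 0 against 8 in the endothelial cells of the groups.

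Smooth muscle cells, the contractile cells of the wall, gave a level high enough to test for Oasl2 alone. Oasl2 was at 0.00999 and 0.00619 CP10K against 0.0970, 0.103 and 0.0995 CP10K, a ratio of 12.4. The log2 difference was 1.37 (SE 0.0939, limma adjusted p 2.90e-07), with all 3 libraries labelled Oasl1-/-Apoe-/- close together and well above the others. Its UMIs were found in 0.496% and 0.261% of cells against 5.02%, 4.70% and 4.90%. Oasl2 was the 1 member tested in smooth muscle cells, through the libraries labelled Oasl1-/-Apoe-/-, where 7.03% of all genes were higher. The other members did not exceed 0.0263 CP10K in any library.

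Fibroblasts, which build the outer wall, gave no adjusted call by limma among the 3 members tested, against 1.54% of genes higher. At an unadjusted p under 0.05 all 3 were higher by limma and 2 by voom on summed UMIs, where 1267 and 1025 of the 9454 genes passed in either direction. Oas1a and Oas2 were tested only through their level in the libraries labelled Oasl1-/-Apoe-/-, so that their direction was given by the filter. Oasl2 was at 0.588 and 0.174 CP10K against 0.592, 0.483 and 1.02 CP10K, so the groups overlapped (log2 difference 0.92, SE 0.381, limma adjusted p 0.276). Oas1a was listed at 0 in Apoe-/- replicate 2 and stood at 0.0730 CP10K in replicate 1, against 0.150, 0.189 and 0.186 CP10K (log2 difference 1.52, limma adjusted p 0.145). Apoe-/- replicate 1 decided these values. Without it Oasl2 had a log2 difference of 1.67 (limma adjusted p 0.00371) and Oas1a, with the limit of the filter just named, of 2.17 (limma adjusted p 0.0171).

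Dendritic cells, with 20 to 35 cells per library, and NK/T cells gave no call among the members by limma. In dendritic cells 0.0945% of all genes were higher, and the log2 differences of the 5 members ran from −0.22 (Oasl2) to 2.64 (Oas1a). In NK/T cells 1.26% of all genes were higher, and the 3 members tested had log2 differences of 1.86 (Oasl1, limma adjusted p 0.171), 1.93 (Oas1a, 0.0874) and 1.66 (Oas3, 0.207). At an unadjusted p under 0.05, limma gave 2 of 5 members in dendritic cells and 3 of 3 in NK/T cells, and voom on summed UMIs gave 2 and 0, with no adjusted call. Over all genes, limma gave 514 of 7409 and 960 of 8147 at that limit, and voom 569 and 657. All 3 members in NK/T cells, and 2 of the 5 in dendritic cells, were tested only through their level in the libraries labelled Oasl1-/-Apoe-/-, which gave their direction. Under that limit, Oas1a passed in NK/T cells without Apoe-/- replicate 1 (limma adjusted p 0.0175). Oasl2 was rare in these lymphocytes, with 3, 0, 1, 0 and 3 UMIs over the libraries in the order above, whereas Oas1a had 2, 0, 8, 10 and 8.

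Between types, no difference in the size of the change passed for any member with 0.05 CP10K added. The log2 difference of Oasl2 in macrophages minus that in smooth muscle cells was 0.43 (SE 0.131, limma adjusted p 0.108, 4.72% of all genes called). Its direction turned with the pseudocount, from −0.61 with 0.01 CP10K added (limma adjusted p 0.0660) to 0.65 with 0.5 CP10K added (limma adjusted p 1.14e-05), and the plain ratio of means was 12.4 in smooth muscle cells and 4.10 in macrophages. Against endothelial cells the value for Oasl2 was 0.45 (SE 0.177, limma adjusted p 0.355, 0.0419% called), and against fibroblasts it was 0.88 (SE 0.464, limma adjusted p 0.480, 0.0282% called). For Oas1a against endothelial cells it was 0.06, and it turned in the same way, from −0.81 (limma adjusted p 0.458) to 0.48 (limma adjusted p 0.0316). That the values at 0.05 CP10K did not pass does not show that the changes were equal. For macrophages against monocytes 0% of genes were called. At an unadjusted p under 0.05, limma gave 682 of 6923 genes there, 2 of the 5 members among them. All these values are on the scale of log2(mean CP10K + 0.05), which compresses the changes of low genes.

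The order of cell types differed between members. In the libraries labelled Oasl1-/-Apoe-/-, mean Oasl1 was 0.634 CP10K in dendritic cells, 0.579 in monocytes and 0.541 in macrophages, whose libraries overlapped. It was then 0.136 in NK/T cells, 0.0350 in fibroblasts, 0.0266 in endothelial cells and, lowest, 0.00429 in smooth muscle cells. Macrophages and NK/T cells did not overlap, nor did endothelial and smooth muscle cells, whereas fibroblasts and endothelial cells did. Oas3 followed nearly the same order, with 0.509 CP10K in monocytes, 0.323 in macrophages, 0.249 in dendritic cells and 0.196 in NK/T cells, each overlapping the next, and with 0.0256 or less in the stromal types.

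Oasl2 departed from that order. Monocytes (0.895 CP10K), macrophages (0.777), fibroblasts (0.698) and endothelial cells (0.651) formed a chain in which each overlapped the next. Dendritic cells were at 0.216 CP10K with a wide spread, smooth muscle cells at 0.0999 and NK/T cells, below every smooth muscle library, at 0.0308. Oas1a was highest in monocytes (1.19 CP10K), which lay above every macrophage library (mean 0.742), and was at 0.175 in fibroblasts, 0.137 in endothelial cells and, lowest, 0.0234 in smooth muscle cells. Oas2 was at 0.239 CP10K in monocytes, 0.141 in macrophages and 0.126 in fibroblasts, the last 2 overlapping.

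Among small types, which were not compared between groups, mesothelial-like cells stood out for the share of cells with Oasl2. An Oasl2 UMI was found in 5 of 5 Apoe-/- cells and in 14 of 28 cells labelled Oasl1-/-Apoe-/-, against no Oasl1 UMI in any of them. By mean level in the latter group, they were at 1.45 CP10K of Oasl2 and neutrophils at 1.52 CP10K. The 57 neutrophils, shallow cells with a median of 1274 UMIs, were also at 1.53 CP10K of Oasl1, on 10 UMIs.

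The makeup of the family's own UMIs therefore shifted between types. Because each gene is counted from its own 3′ end, these shares are compared between types and not between genes. Oasl2 made up 57.9% to 75.0% of the 5 genes' UMIs in smooth muscle cells, 63.1% to 96.0% in endothelial cells and 54.0% to 89.5% in fibroblasts, but 23.4% to 35.8% in macrophages and 13.3% to 28.9% in monocytes. In each of the 5 libraries every stromal type lay above macrophages. The Apoe-/- shares rest on few UMIs of the 5 genes. Smooth muscle cells had 24 and 19, endothelial cells 35 and 25, fibroblasts 19 and 5, and monocytes 15 and 15. In the libraries labelled Oasl1-/-Apoe-/- alone, Oasl2 made up 68.0% to 75.0%, 63.1% to 73.1% and 54.0% to 68.2% in these stromal types. Macrophages of those libraries had 28.7% to 31.8%. The difference from macrophages was 36.5 ± 6.54 percentage points for smooth muscle cells, 45.2 ± 16.0 for endothelial cells and 41.1 ± 13.5 for fibroblasts (SD, n = 5). An exact two-sided sign-flip permutation test over the 5 libraries gave p = 0.0625 for each, the smallest it can give, and the adjusted p over these 3 tests was also 0.0625. This test was added after the data were seen.

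**Figure D3:**
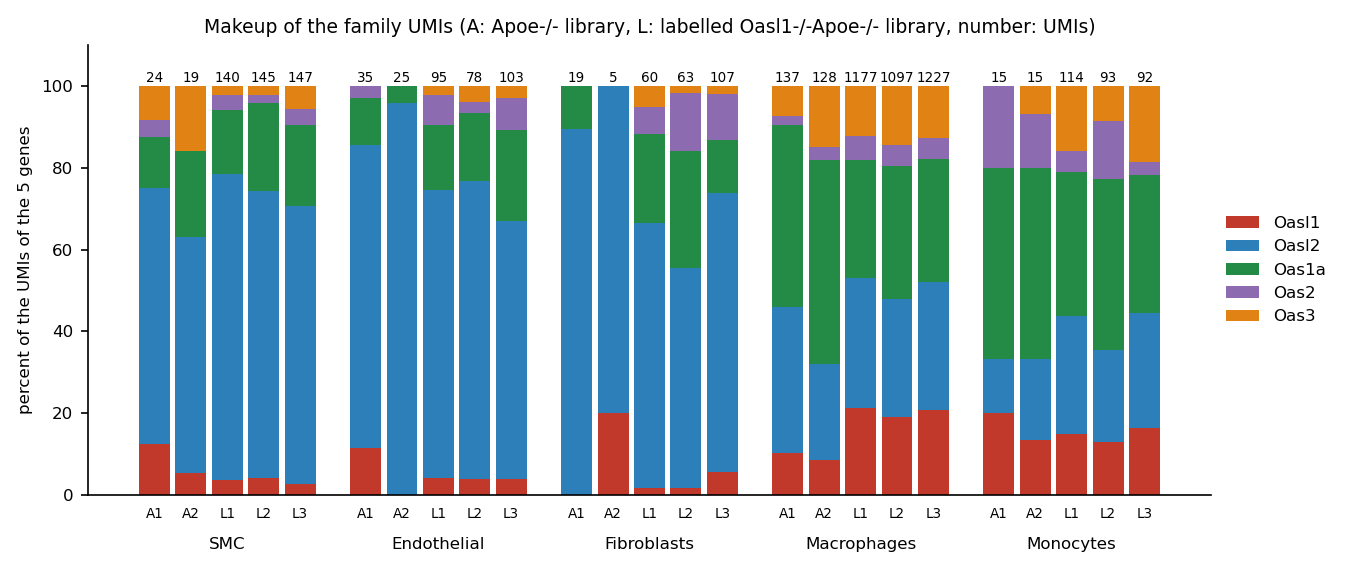
Share (percent) of the 5 genes' UMIs taken by each member, by cell type, with 1 bar per library. The part taken by Oasl2 is larger in smooth muscle cells, endothelial cells and fibroblasts (54.0% to 96.0%) than in macrophages (23.4% to 35.8%) in every library.

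The ratio of the neighbours Oasl2 and Oasl1 also differed between types. In the libraries labelled Oasl1-/-Apoe-/-, 1.51 Oasl2 UMIs were found per Oasl1 UMI in macrophages (1075 against 714) and 1.82 in monocytes (80 against 44). The ratio was 20.5 in smooth muscle cells (307 against 15), 17.2 in endothelial cells (189 against 11) and 18.2 in fibroblasts (146 against 8). The stromal ratios rest on 8 to 15 Oasl1 UMIs. In the Apoe-/- libraries, with fewer UMIs still, the ratio was 3.16 in macrophages (79 against 25), 6.5 in smooth muscle cells (26 against 4) and 12.5 in endothelial cells (50 against 4), and fibroblasts had 21 Oasl2 UMIs against 1 of Oasl1. The separation between macrophages and smooth muscle cells was thus smaller there. The part of free RNA in these values was not tested.

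Macrophage markers were also higher in the stromal cells of the libraries labelled Oasl1-/-Apoe-/-. The summed level of the 8 macrophage markers was 0.991 and 0.746 CP10K against 1.70, 2.07 and 1.58 CP10K in smooth muscle cells, and 0.325 and 0.627 CP10K against 1.31, 1.14 and 0.881 CP10K in endothelial cells, with 6 to 8 of the 8 found in each library. Among smooth muscle cells without any UMI of these markers, Oasl2 was at 0.00768 and 0.00668 CP10K against 0.0872, 0.102 and 0.0961 CP10K. Oas1a was at 0.0162, 0.0198 and 0.0154 CP10K in the libraries labelled Oasl1-/-Apoe-/- there. Over all smooth muscle cells these libraries had 0.0201, 0.0263 and 0.0237 CP10K of Oas1a. Among endothelial cells without any UMI of these markers, Oasl2 was at 0.260 and 0.188 CP10K against 0.799, 0.682 and 0.524 CP10K. These cells were selected after the data were seen. A cell without UMIs of these markers may still hold free RNA, whose part was not tested.

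Within macrophages the members were often found in the same cell. At least 1 member had a UMI in 19.1% and 21.2% of Apoe-/- macrophages against 57.6%, 60.3% and 57.1%, and at least 2 members in 3.44% and 2.81% against 29.1%, 30.7% and 28.1%. All 5 were found together in 3, 5 and 2 macrophages labelled Oasl1-/-Apoe-/- and in none of the Apoe-/- macrophages. Cells with a member were deeper, with median UMIs of 6243 to 6747 per library against 3868.5 to 4946 in cells without one.

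**Figure D4:**
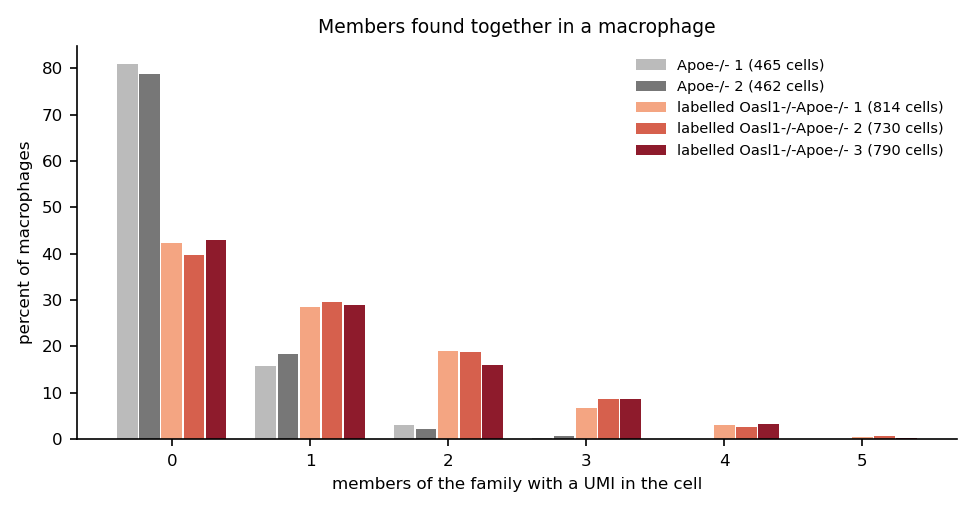
Share (percent) of macrophages by the number of members with a UMI in the cell, for each library. Cells with at least 1 member make up 57.1% to 60.3% of macrophages in the libraries labelled Oasl1-/-Apoe-/- and 19.1% to 21.2% in the Apoe-/- libraries.

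Co-detection was therefore measured within 5 strata of depth, as an odds ratio in which 1 stands for independence. For all 10 pairs the ratio was above 1 in each of the 3 libraries labelled Oasl1-/-Apoe-/-. By its mean over these libraries it was highest for Oasl2 with Oas3 (2.59 to 3.68, 190 cells with both), followed by Oas1a with Oas2 (1.13 to 5.49, 94 cells), Oasl2 with Oas2 (1.67 to 3.33, 88 cells) and Oasl2 with Oas1a (2.27 to 2.51, 344 cells). The pair of Oas1a and Oas2 had the widest range of the 10. For Oasl1 it was 1.37 to 1.55 with Oas1a (194 cells) and 1.62 to 2.35 with Oasl2 (205 cells). At 1000 UMIs per cell, where a pair was seen together in at most 14 cells, 5 of 10 pairs were above 1 in all 3 libraries. These are descriptions over cells, which are not replicates, and cells within a stratum still differ in depth and state.

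In endothelial cells only the pair Oasl2 and Oas1a was above 1 in all 3 libraries (1.69 to 3.60, 17 cells with both), on few cells. In fibroblasts the same pair was at 3.0 to 10.6 (22 cells).

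**Figure D5:**
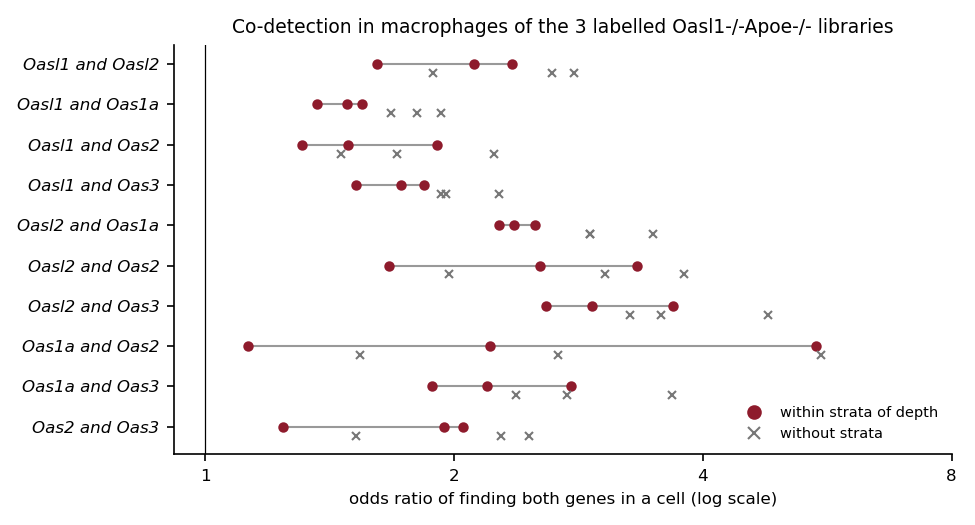
Odds ratio of co-detection (log axis) for each pair of members in macrophages, with 1 point per library labelled Oasl1-/-Apoe-/- within strata of UMIs per cell, crosses for the values without strata, and a line at 1. All points lie above 1, from 1.13 (Oas1a with Oas2) to 5.49 (the same pair in another library).

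Across the 35 means of type and library, the members tracked each other unevenly. The correlation of log2 levels was highest for Oasl1 with Oas3 (Pearson r 0.89) and with Oas1a (0.85), and for Oas1a with Oas3 (0.78). It was low for Oasl1 with its neighbour Oasl2 (0.32) and for Oasl2 with Oas3 (0.22), and 6 of the 10 pairs were above 0.5. Over the libraries labelled Oasl1-/-Apoe-/- alone, these values were 0.92 for Oasl1 with Oas3, 0.20 for Oasl1 with Oasl2 and 0.10 for Oasl2 with Oas3. Over the Apoe-/- libraries alone they were 0.42, 0.20 and −0.14, Oas1a with Oas3 was at 0.21, and Oasl1 with Oas2 was the highest pair (0.81), so the order of pairs differed between the groups. The points share libraries, depth and the contrast between the groups, and the values are descriptions.

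The genes whose levels were most correlated with each member over the 35 means were looked for among 9757 genes. Oasl1 was closest to Oas3 (r 0.89), Oas1g (0.88), Phf11a (0.88), Ms4a4c (0.87) and Chmp4b (0.86). Oas3 was closest to Ifi213 (0.91), Oasl1 (0.89), Phf11a, Mx1 and Phf11b (each 0.88). Oas1a was closest to Zbp1 (0.86), a sensor of Z-form nucleic acid, and to Chmp4b (0.85). Oas2 was closest to Ifi211 (0.84) and Ifi204 (0.80), genes of a DNA-sensing family. Oasl2 was closest to other genes, with Phf11d (0.83), Mlkl (0.79), the executor of necroptosis, Pnp (0.77) and Gbp2 (0.77).

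Macrophages themselves differed in the family. Clusters were made without the family and its pathway genes, after the data were seen. A cluster led by Ccl12, Ccl8 and Cd72 held 330, 297 and 344 cells of the libraries labelled Oasl1-/-Apoe-/-, and a cluster led by the lipid-associated genes Gpnmb, Trem2 and Lpl held 263, 250 and 264. The Apoe-/- libraries had 65 and 64 cells in the first and 232 and 246 in the other, so the groups were spread differently over the clusters. Oasl1 was at 0.918, 0.772 and 0.965 CP10K in the first and at 0.405, 0.314 and 0.258 CP10K in the other. In the Apoe-/- libraries it was at 0.163 and 0.201 CP10K in the first and at 0.0399 and 0.0413 CP10K in the other, below all libraries labelled Oasl1-/-Apoe-/- in each cluster. Every library had more Oasl1 in the cluster led by Ccl12, but the Apoe-/- values rest on 5 and 4 UMIs there and 7 and 6 in the other. Oasl2 (1.12, 0.951 and 1.02 against 0.571, 0.544 and 0.548 CP10K) and Oas3 (0.461, 0.537 and 0.485 against 0.159, 0.250 and 0.226 CP10K) went the same way in the libraries labelled Oasl1-/-Apoe-/-. In the Apoe-/- libraries Oasl2 did so too (0.323 and 0.267 against 0.134 and 0.0898 CP10K). Oas1a (0.122 and 0.268 against 0.169 and 0.224 CP10K) and Oas3 (0 and 0.266 against 0.0370 and 0.0455 CP10K) did so in Apoe-/- replicate 2 only. So did Oas2 (0 and 0.104 against 0.00860 and 0 CP10K), on 1 or 2 UMIs where it was found. The comparison is a description of 1 partition of the cells, and median UMIs per cell were lower in the cluster led by Ccl12 in each of these libraries (4604 to 4858.5 against 7189 to 7838).

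Pde12, a phosphodiesterase that degrades oligoadenylates, the product of these synthetases, was at 0.122 and 0.103 CP10K in Apoe-/- macrophages and at 0.130, 0.123 and 0.0938 CP10K in those labelled Oasl1-/-Apoe-/-. The groups overlapped, and the gene did not pass (log2 difference 0.02, limma adjusted p 0.958).

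Against 10.3% of all genes, 6 of the 7 listed RNA sensors tested were higher in macrophages, with a median log2 difference of 0.87. They were Zbp1 (2.16), Ifih1 (1.25), which encodes MDA5, Dhx58 (0.97), Adar (0.87), Ddx58 (0.84), which encodes RIG-I, and Eif2ak2 (0.60), which encodes PKR. Mavs, an adaptor gene in this list, had a log2 difference of 0.19 (limma adjusted p 0.536), and Tlr3 was below the limit on low values.

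Among genes of interferon receptors and signalling, Stat2 (1.45) and Irf9 (0.80), which encode parts of the complex that binds interferon response elements, were higher in macrophages. The receptor genes Ifnar1 (0.09, limma adjusted p 0.620) and Ifnar2 (0.28, limma adjusted p 0.0680) did not pass. Of 5 interferon regulatory factors, 3 were higher (Irf7 1.37, Irf1 0.67 and Irf8 0.45), against 10.3% of all genes. Ifnb1, the interferon beta gene, was higher by 0.96 (limma adjusted p 0.0176).

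All 13 interferon-stimulated genes tested outside the family were higher in macrophages, with a median of 1.83 and examples in Ifit3 (2.61) and Isg15 (2.21). In endothelial cells 10 of 12 were higher, with a median of 1.31, and in smooth muscle cells 8 of 9, with a median of 1.56. RNA sensors gave 1 of 8 in endothelial cells (Zbp1, 2.20) and 1 of 4 in smooth muscle cells (Ddx58, 0.45). No gene of these lists was lower in macrophages. All these fits share the same libraries and are not independent of each other.

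The family's place on the chromosome was examined through its neighbours. With the family left out, 71 genes start within 1 Mb of the start of Oasl1 or Oas2, and 39 were tested in macrophages. Of these, 6 were higher and 3 lower, with a median log2 difference of −0.04, where 10.3% of all genes were higher and 6.02% lower. The called neighbours nearest to Oasl1 were 1500011B03Rik (1.10, 99.8 kb away) and Gltp (−0.77, 232 kb away), a glycolipid transfer protein gene, followed by Coq5 (0.57), Dynll1 (0.44) and Pxn (0.62).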

How the data were processed

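Single cells of the aortic arch were measured in 5 libraries (Chromium 3′ v2 kit). The authors mapped reads to mm10 with Cell Ranger 3.1.0 and filtered and normalized cells with Seurat 4.0.3, and doublets had already been taken out with DoubletFinder. Deposited values are natural logs of 1 plus the UMIs per 10000 of a cell. Undoing the log and dividing by the smallest value of a cell gave whole UMIs for 100% of values (tolerance 0.01). The table appears to set a gene to 0 in any library where under 3 cells held it, so a gene without UMIs is called listed at 0. Every member was held by at least 8 cells of each library, so a member listed at 0 in a type had no UMI counted there.

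Cells were assigned to 12 types by the share of fixed markers detected, weighted by rarity (score at least 0.2, lead over the next type at least 0.05). The study's own annotation was not used. The library was the replicate. For the whole aorta and 7 types, log2(mean CP10K + 0.05) of genes with a mean of at least 0.05 CP10K was tested by limma 3.58.1 (R 4.3.3, eBayes with trend, Benjamini-Hochberg over all genes tested, threshold 0.05). The study tested cells rather than libraries. Fits were tested on simulated data. Shares used exact permutation tests, and depth was equalized at 1000 UMIs per cell, leaving out 245 Apoe-/- cells and 311 cells of the other group. Promoters came from RefSeq (GRCm38.p6) and positions from GENCODE on GRCm38, which matched 16324 (98.9%) of the gene symbols.

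The members, gene lists and tests were chosen with earlier results of these data known. The text names the members, genes of the pathway lists, genes among the 5 most correlated with each member, and at most 5 called chromosome 5 neighbours nearest to Oasl1. Some genes of these lists are not reported here. Alternatives were other pseudocounts, filters, gates, clusters (Leiden algorithm on 2000 variable genes without the family), voom, thinning, the replicate block and leaving out each library.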

Additional observations from a re-analysis of the deposited data

How the results depend on the processing

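All 5 members stayed higher in macrophages, and 4 in the whole aorta, when any 1 library was left out. Of the tested values of single members under alternatives, 367 kept their direction and side of the threshold, 31 lost the call, 6 gained it and 19 turned in direction, none of them past the threshold under any setting. These 19 were values of Oas2 in monocytes and of Oasl2 and Oas2 in dendritic cells. For Oas2 in monocytes the log2 difference was 0.0202 with a pseudocount of 0.5, 0.0295 from the mean of the deposited log values, 0.34 by voom, 0.0245 centred on the median, 0.20 with the replicate block, 2.67 thinned and 0.29 with a stricter gate. For Oasl2 in dendritic cells it was 0.11 with a pseudocount of 0.5, 0.0125 from the deposited log values and 1.58 with Leiden clusters. For Oas2 in dendritic cells it was −0.0917 with a pseudocount of 0.01 and −0.69 thinned. Leaving out 1 library gave −0.36 to 0.20, −1.31 to 0.55 and −0.61 to 0.85 for these 3 results. Between types, 10 values turned, none past the threshold. With a pseudocount of 0.01, macrophages minus smooth muscle cells was −0.61 for Oasl2, and for Oas1a macrophages minus endothelial cells was −0.81, minus fibroblasts −1.01 and minus monocytes 0.0137. Without 1 library these 3 values of Oas1a ran from −0.16 to 0.19, from −0.54 to 0.55 and from −0.30 to 0.22. The causes of the following changes were not tested. With a filter of 0.2 CP10K fewer genes were tested, leaving 1 member called in the whole aorta, 1 in endothelial cells, none (0) in smooth muscle cells, and 5 of the pathway genes in smooth muscle cells (14 otherwise). Without a filter, 2 members were called in smooth muscle cells, 4 in the difference between macrophages and smooth muscle cells and 1 in endothelial cells, where 9 pathway genes passed (14 otherwise). Thinned to 1000 UMIs, 0 members were called in endothelial cells and 0 in monocytes, 6 pathway genes in endothelial cells, and 5 of 10 pairs were found together above independence in every library. By voom 0 members were called in monocytes. With Leiden clusters 1 member was called in fibroblasts and 2 in dendritic cells. With a pseudocount of 0.5 CP10K, added after the data were seen, 1 member differed between macrophages and smooth muscle cells and 1 between macrophages and endothelial cells. Leaving out 1 library gave 1 to 2 members in endothelial cells (1 without Apoe-/- replicate 2 or labelled replicate 3), 0 to 2 in fibroblasts (2 without Apoe-/- replicate 1), 0 to 2 in monocytes, 0 to 1 in NK/T cells (1 without Apoe-/- replicate 1) and 9 to 13 pathway genes in endothelial cells. Libraries of the groups share a replicate number, and deviations of same-numbered libraries had correlations of 0.0148 and 0.0429 in the whole aorta. The deviations of the 2 Apoe-/- libraries mirror each other, so these values cannot show whether the number stands for a shared preparation. With that number as a replicate block, which leaves labelled replicate 3 unpaired, 4 members were called in the whole aorta, 5 in macrophages, 3 in monocytes, 2 in endothelial cells, 1 in smooth muscle cells, and 0 elsewhere.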

Other observations

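The groups hold 2 and 3 libraries of pooled mice, so differences between animals were not measured. Levels under 0.05 CP10K rest on few UMIs (Oas2 had 9 in each Apoe-/- library), and for these the depth limits what can be told. The 3′ tags do not read the deleted part of Oasl1, and a shorter or untranslated transcript cannot be told apart from the intact one. Oas1a and Oas1g share 3′ ends, and how their reads were divided is unknown. Cell types rest on fixed markers, and 76.4% of the macrophages and 68.4% of the monocytes kept their name when cells were clustered instead. Dendritic cells and monocytes were few, so a member that did not pass there is not shown to be unchanged.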
